A study of Mus musculus with 53 samples.

Results

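Wnt ligands and R-spondins are secreted signals that maintain the intestinal epithelium, and 10 of their genes were followed here: Wnt2b, Wnt3, Wnt4, Wnt5a, Wnt6, Wnt10a, Wnt11, Rspo1, Rspo2 and Rspo3. They are the 10 rows, of 55421 in the count table, whose Ensembl identifiers carry these symbols. Each was measured in 53 libraries of whole mouse intestine that fall into 11 groups, and each group was set against its own WT. Another 13 ligand and R-spondin genes of the same families were counted beside them as a list.

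Wnt proteins are lipid-modified in the secreting cell by the acyltransferase Porcn, carried to the surface by Wls and bound on the receiving cell by Frizzled receptors with Lrp5 or Lrp6. In the canonical branch, binding stops the destruction complex, of which Apc is a scaffold, from removing β-catenin, and β-catenin with Tcf/Lef factors then switches on targets such as Axin2. R-spondins raise the response because they bind Lgr receptors and draw the E3 ligases Rnf43 and Znrf3, which remove Frizzleds, off the membrane. In the gut Wnt3 is known as the ligand of Paneth cells, whereas Wnt2b, Wnt4, Wnt5a and the R-spondins are known mainly from cells of the mesenchyme beneath the crypts, and Wnt5a and Wnt11 are known for non-canonical signalling.

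All mice, WT included, carried the tamoxifen-inducible VilCreER transgene, which drives recombination in intestinal epithelium only, and the methods of the study give induction at 6 to 12 weeks of age. In the proximal colon, BA tumours (n = 4 mice, Braf V600E/+ Alk5 fl/fl, where Alk5 is the TGFβ receptor gene Tgfbr1) were set against WT colon (n = 3). Day 30 (d30) tissue of the proximal colon came from BA mice (n = 5), BA mice on antibiotics (n = 5), A mice (Alk5 fl/fl, n = 4), A mice on sulindac (n = 4) and WT mice (n = 4). Antibiotics were ampicillin, neomycin trisulphate and metronidazole at 1 g/L each with vancomycin at 500 mg/L in drinking water, and sulindac, a non-steroidal anti-inflammatory drug, was given at 0.4 g/L for 14 days. In the small intestine, Apc fl/+ tumours (n = 5) were set against WT tissue (n = 3), both from inbred C57BL6/J mice, and Apc fl/fl tissue at day 4 (d4, n = 10) against WT tissue at d4 (n = 6), both from mixed C57BL/6J mice like all colon groups. The labels and methods name neither the sex nor a sequencing batch of single libraries, and a tumour library holds tumour epithelium together with its stroma.

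Libraries held 516985 to 32824795 reads assigned to genes (median 18356939), and 3 counts at the median total of a group equalled 0.138 to 0.192 CPM (reads of a gene scaled to a fixed library size). Apc could not be used to check the Apc groups, since counts over the whole gene do not single out a deleted exon, and its level was 36.9 to 154.5 CPM in Apc fl/fl d4 libraries against 63.2 to 113 in WT d4. The same holds for Tgfbr1 (41.1 to 57.1 CPM in BA d30 and 34.7 to 66.1 in WT d30) and for the point mutation of Braf (33.8 to 39.5 and 29.6 to 42.0), and Tgfbr1 was 87.6 to 172 CPM in BA tumours against 50.4 to 56.3 in WT colon, above WT although their label is Alk5 fl/fl. Markers of the labelled tissue were present throughout: 10 epithelial genes summed to at least 6377 CPM in every library, and 6 Paneth cell genes, which mark the small intestine, to 1267 to 9150 CPM in its 4 groups against 4.80 to 829 in colon groups. Some libraries stood apart. Replicate 3 of the antibiotic-treated BA group had 1747 CPM over 6 adipocyte genes, against 7.96 to 18.3 in the other 4 of its group, and 8734 CPM over 10 fibroblast genes against 1279 to 1815. Among Apc fl/fl d4 libraries, replicate 1 held only 516985 reads, and replicate 5 had 200.2 CPM over 5 gastric genes against 0 to 2.28 in the rest of that group. The pseudogene Gm13394 was over 10 CPM in every A and BA library at d30 and in 0 of 4 WT libraries at d30, and it also split BA tumours (3 of 4) from WT colon (0 of 3) and Apc fl/+ tumours (0 of 5) from their WT (3 of 3), so whatever it tracks cannot be told apart from genotype in those comparisons.

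Each member is a protein-coding gene on its own locus (GRCm38, GENCODE M21). Wnt6 (chr1:74771892-74785322) and Wnt10a (chr1:74791516-74804179) are neighbours on the plus strand, and the others lie on chromosomes 3 (Wnt2b), 4 (Wnt4 and Rspo1), 7 (Wnt11), 10 (Rspo3), 11 (Wnt3), 14 (Wnt5a) and 15 (Rspo2). An antisense gene overlaps exons of Rspo3 over 404 bases and of Wnt5a over 358, and a pseudogene those of Wnt11 over 364. The strand setting of the counting was not given in the sources used here, so reads of such partners cannot be told apart from the member's own.

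RefSeq promoters (GRCm38.p6) were listed for 6 of the 10 members, in 7 entries. The 250 bases before the start of Wnt11, Wnt3 and Wnt6 are shown because these 3 ligands rose in the Apc groups, each in a different pattern. Capitals mark the Tcf/Lef letters CTTTGAT or CTTTGAA on either strand, which cannot both match at the same place. Wnt11 is at chr7:98834862-98835111, Wnt3 at chr11:103773925-103774174 and Wnt6 at chr1:74771642-74771891, all on the plus strand.
Wnt11: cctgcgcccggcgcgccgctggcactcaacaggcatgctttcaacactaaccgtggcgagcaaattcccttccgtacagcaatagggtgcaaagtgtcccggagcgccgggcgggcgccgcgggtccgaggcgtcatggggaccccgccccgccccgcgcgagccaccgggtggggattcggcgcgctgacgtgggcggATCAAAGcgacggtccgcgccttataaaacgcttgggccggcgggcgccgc
Wnt3: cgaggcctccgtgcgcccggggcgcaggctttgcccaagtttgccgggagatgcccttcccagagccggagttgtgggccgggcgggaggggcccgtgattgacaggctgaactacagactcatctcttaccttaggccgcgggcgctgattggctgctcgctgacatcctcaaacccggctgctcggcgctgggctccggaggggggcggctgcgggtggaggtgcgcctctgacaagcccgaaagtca
Wnt6: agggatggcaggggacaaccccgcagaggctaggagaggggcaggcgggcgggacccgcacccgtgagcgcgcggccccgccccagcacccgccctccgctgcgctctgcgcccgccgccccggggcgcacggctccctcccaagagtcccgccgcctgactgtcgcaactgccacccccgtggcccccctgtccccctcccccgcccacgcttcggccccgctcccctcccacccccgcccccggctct
The Wnt11 window held 1 match (ATCAAAG, the reverse strand of CTTTGAT), 51 bases before the start, whereas the 250 bases before its other listed start, and those of the other 5 members, held none. Of 32851 promoters, 7.48% held either motif in the same length, so a match is common and describes the letters only.

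**Figure D1:**
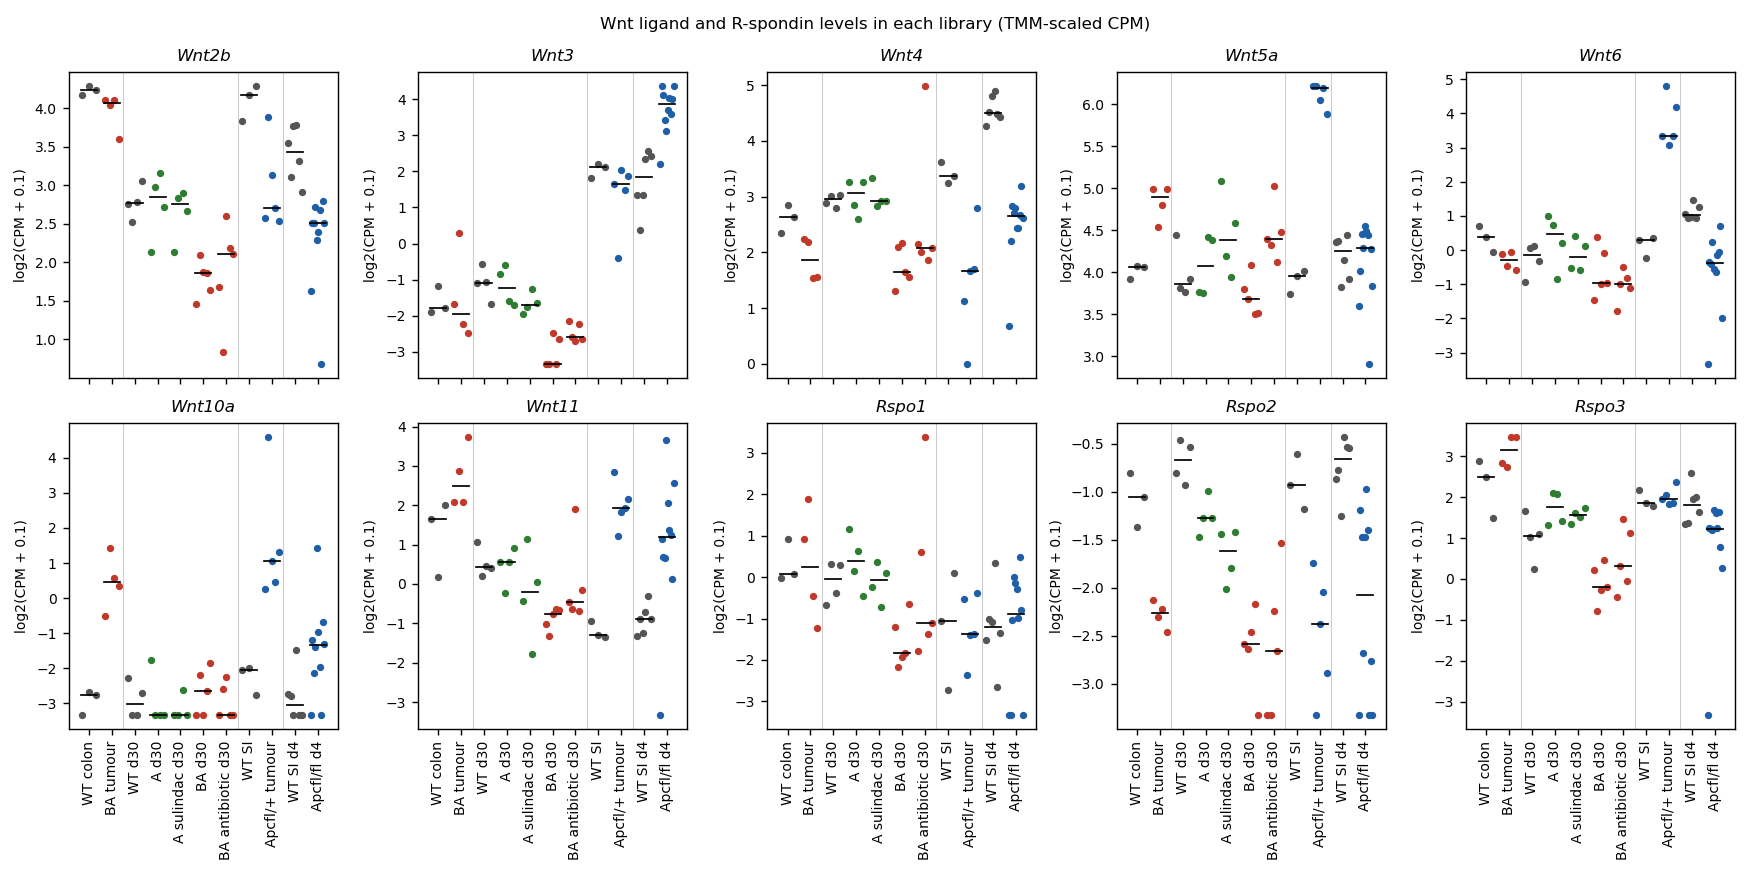
Level of each member in each library, as log2 of TMM-scaled CPM plus 0.1, by group, with a black line at the group median; grey points are WT, red BA, green A and blue Apc groups. Wnt5a and Wnt6 stand highest in Apc fl/+ tumours, Wnt3 in Apc fl/fl tissue at d4, and Wnt10a did not exceed 0.522 CPM outside tumours except for 1 Apc fl/fl library at 2.58.

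Between genes, levels were compared per kilobase of exon. In WT colon, Wnt2b was the most abundant member at 4.45 CPM per kb, followed by Wnt5a at 2.07, Rspo3 at 1.67 and Wnt4 at 1.45. In WT d30 colon, Wnt5a (2.05), Wnt4 (1.80) and Wnt2b (1.63) led. WT small intestine was led by Wnt2b (4.10) and Wnt4 (2.53), and WT tissue at d4 by Wnt4 (5.69) and Wnt2b (2.56). Wnt3 was a ligand of the small intestine here, at 1.32 CPM per kb in WT and 1.20 in WT d4 against 0.0764 in WT colon and 0.125 in WT d30. Wnt10a and Rspo2 did not exceed 0.104 CPM per kb in any WT group. The members summed to between 7.50 and 14.3 CPM per kb in WT groups, to 4.16 in BA d30, the lowest of 11 groups, and to 24.4 in Apc fl/+ tumours, the highest. The 2 WT groups of the same tissue were not alike: Wnt2b was 17.9, 19.4 and 18.8 CPM in WT colon and 5.65 to 8.24 in the 4 WT d30 libraries, and Wnt4 was 9.42 to 12.2 CPM in WT small intestine and 19.2 to 29.6 in WT d4. These ranges do not overlap, no test was run between them, and every comparison below uses the WT of its own group.

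**Figure D2:**
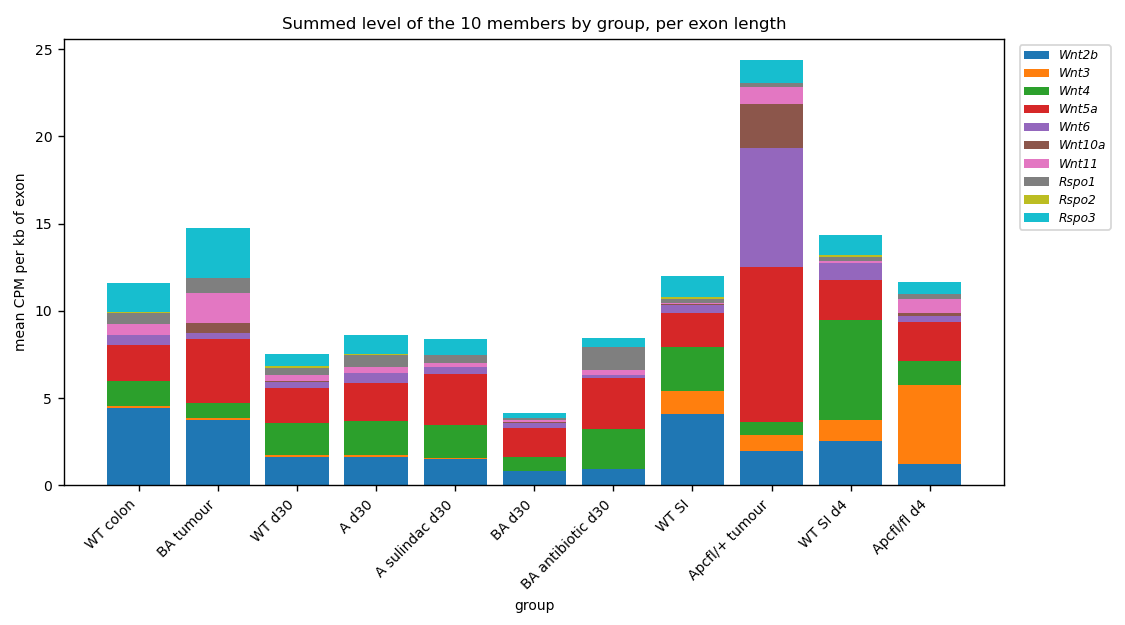
Group means of the 10 members stacked, in CPM per kb of exon. The sum was 4.16 in BA d30 and 24.4 in Apc fl/+ tumours, where Wnt5a and Wnt6 made up 36.4% and 28.0% of it.

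Apc fl/+ tumours had far more Wnt5a, Wnt6, Wnt10a and Wnt11 than WT small intestine and less Wnt4 and Wnt2b. Of the 10 members, 9 passed the filter on low counts, and the test called 4 of them higher and 2 lower (adjusted p below 0.05). Of all 20567 genes tested, 61.5% passed, so a call on its own is common in this comparison and the sizes carry more. Wnt5a was 74.5, 74.2, 66.3, 73.1 and 59.1 CPM in the tumours and 13.3, 15.4 and 16.1 in WT. The groups lay far apart with little spread, a log2 fold change of 2.11 ± 0.12 (SE, adjusted p = 1.04e-05). Wnt6, a ligand with canonical activity, was 10.1, 28.0, 8.30, 10.1 and 18.3 CPM in tumours against 1.13, 0.759 and 1.17 in WT, a change of 3.77 ± 0.50 (adjusted p = 0.000356). Every tumour stood above every WT library, by 13.6-fold in the fit.

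Wnt11 was 7.10, 2.23, 3.48, 3.68 and 4.36 CPM in these tumours against 0.424, 0.304 and 0.293 in WT, again without overlap (3.49 ± 0.43, adjusted p = 0.000241). For Wnt10a, a canonical ligand, the tumours had 22, 509, 43, 27 and 67 reads and the WT libraries 3, 3 and 1. Summed over libraries, this is a ratio of 49.0 per read sequenced (95% exact interval 23.7 to 122, counting error only), and the fitted change was 5.61 ± 1.58 (adjusted p = 0.0136). Wnt10a, and Wnt11 with 9, 6 and 6 reads in WT, passed the filter on low counts through their tumour reads alone. Replicate 2 alone held 24.2 CPM of Wnt10a, while the other 4 tumours were at 1.10 to 2.38, and without it the fitted change was 3.74 and still passed. DESeq2 gave no adjusted p for Wnt10a there. That tumour also had the highest Wnt6 and Wnt2b of its group and the lowest Wnt3, Wnt4 and Wnt11. All 5 gastric genes were higher in these tumours than in WT (median log2 fold change 7.89), at a summed 403 to 1101 CPM in 4 tumours and 13.7 in replicate 2 against 5.16 to 6.69 in WT, where Gkn2 was at 0, and their part in the ligand changes was not tested. In replicate 2 the epithelial genes summed to 6377 CPM against 9165 to 12540 in the other 4.

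Wnt4 fell in Apc fl/+ tumours, with 2.10, 0.903, 3.06, 3.16 and 6.84 CPM against 12.2, 9.42 and 10.3 in WT (-1.81 ± 0.49, adjusted p = 0.0114). Wnt2b fell too, at 5.85, 14.7, 8.67, 6.42 and 5.71 CPM against 14.2, 18.0 and 19.5 (-1.16 ± 0.32, adjusted p = 0.0125), with replicate 2 reaching into the WT range. Without WT replicate 3 the calls of Wnt2b (adjusted p = 0.0501) and Wnt10a (0.0514) were lost while the sizes were -1.05 and 5.27. Wnt3 (-0.63 ± 0.45), Rspo1 (-0.36 ± 0.76) and Rspo3 (-0.02 ± 0.19) did not pass. Rspo2 was too low for the filter, with 4, 0, 2, 3 and 1 reads in tumours against 9, 11 and 7 in WT, a ratio of 5.26 (2.47 to 12.2) in favour of WT, and it passed in a fit without the filter (-2.24 ± 0.66, adjusted p = 0.0199). Lists of 10 niche fibroblast genes and 10 fibroblast genes were higher in these tumours, unlike Wnt4 and Wnt2b. The former summed to 798 to 954 CPM in tumours against 371 to 398 in WT, and the latter to 3141 to 4061 against 1234 to 1560. In each list 7 of 10 were higher, and 1 of the niche genes was lower. Of 8 smooth muscle genes 4 were lower and 0 higher (median change -0.78). Of 8 enteric neuron and glia genes 4 were lower and 1 higher (median -0.94), although their sum was 23.1 to 34.7 CPM against 17.5 to 19.3. No marker of these lists was at 0 in all libraries of either group, and their part in the result was not tested. In whole tissue, fewer cells of a type and less RNA per cell cannot be told apart.

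Acute loss of Apc gave another picture at d4. Wnt3 and Wnt11 rose, whereas Wnt4, Wnt6, Wnt2b and Rspo3 fell, which makes 2 higher and 4 lower of the 7 members that passed the filter. Over all 17536 genes, 54.2% passed. Wnt3 had a lowest, median and highest level of 4.50, 14.5 and 20.6 CPM in Apc fl/fl tissue and 1.19, 3.70 and 5.80 in WT. Only the shallow replicate 1 lay within the WT range, and the change was 1.91 ± 0.34 (adjusted p = 0.000168). The 6 Paneth cell genes, the known source of Wnt3, summed to 2399 to 9150 CPM against 2675 to 8654 in WT, with 1 gene higher (Mmp7, log2 fold change 1.23) and 0 lower. Wnt11 was 0, 2.18 and 12.5 CPM against 0.298, 0.441 and 0.71 (2.93 ± 0.56, adjusted p = 0.000355), and the groups overlapped only through the shallow replicate 1, which had 0 reads of it. With 6 to 12 reads per WT library, Wnt11 passed the filter through its Apc fl/fl reads. Its highest value belonged to replicate 5, the library with gastric genes, which also held the highest Wnt10a (2.58 CPM).

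Wnt4 was 1.50, 6.16 and 9.02 CPM after loss of Apc and 19.2, 22.6 and 29.6 in WT, without overlap (-2.00 ± 0.17, adjusted p = 2.82e-07). Wnt2b at 1.51, 5.60 and 6.84 against 7.42, 10.7 and 13.7 CPM (-1.08 ± 0.21, adjusted p = 0.000418) and Wnt6 at 0, 0.665 and 1.52 against 1.81, 1.92 and 2.64 CPM (-1.51 ± 0.31, adjusted p = 0.000566) were below WT in every library too. Rspo3 fell by 0.71 on the log2 scale (SE 0.27, adjusted p = 0.0318), with 0, 2.24 and 3.11 CPM against 2.43, 3.41 and 5.91. That call was lost in 4 of 16 fits that left out a library (WT d4 replicates 3, 4 and 5 and Apc fl/fl replicate 9). It was lost within the libraries over 10 CPM of Gm13394 (6 against 3, adjusted p = 0.12) and within those under it (4 against 3, adjusted p = 0.135). It was also lost with the replicate number as a block (adjusted p = 0.059), a fit that drops Apc fl/fl libraries whose number no WT library has. The other 5 calls held in all of these fits and without replicates 1 and 8 together. Wnt5a did not pass (-0.06 ± 0.17), with 7.44, 19.4 and 23.3 CPM against 14.1, 19.0 and 21.7. Wnt10a, Rspo1 and Rspo2 were too low for the filter. Without it, Wnt10a (3.11 ± 0.88, adjusted p = 0.0103) and Rspo2 (-1.39 ± 0.47, adjusted p = 0.0318) passed. Fibroblast genes summed to 518 to 3140 CPM against 1265 to 2272 in WT, with 0 higher and 1 lower of 10, and niche fibroblast genes to 300.1 to 534 against 366 to 449, with 3 higher and 3 lower of 10. Other lists were lower at d4 with 0 genes higher: 6 of 8 enteric neuron and glia genes (median change -0.83), 3 of 5 lymphatic endothelium genes (-0.92) and 5 of 8 immune cell genes (-0.97). The immune genes summed to 107 to 163 CPM against 240.4 to 356 in WT, the lymphatic genes to 15.0 to 58.9 against 54.4 to 93.8, and the enteric genes to 10.5 to 30.7 against 25.1 to 42.1. No marker of these 3 lists was at 0 in all libraries of either group, and their part in the falls of Wnt4, Wnt2b and Rspo3 was not tested.

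**Figure D3:**
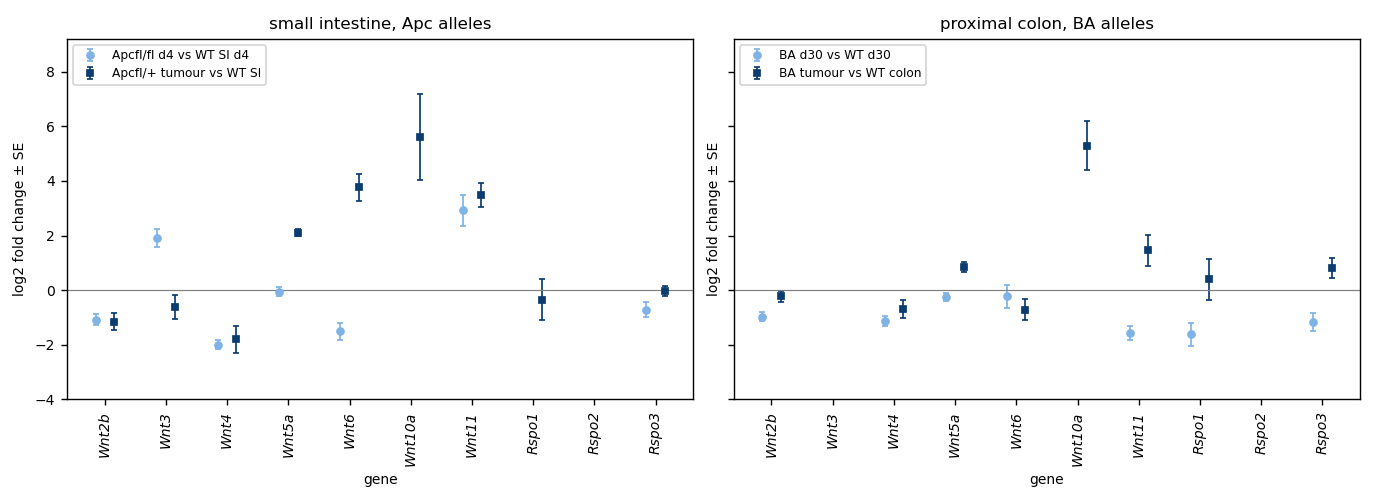
Log2 fold change ± SE of each tested member against its own WT, at the early time (light circles) and in tumours (dark squares), for Apc alleles in the small intestine and BA alleles in the proximal colon. Wnt5a and Wnt6 differed between the early and the tumour effect of Apc alleles, and Wnt11 and Rspo3 between those of BA alleles.

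The effect in Apc fl/+ tumours was then set against that of acute Apc loss in a single fit with an interaction term, in which 24.7% of 22202 genes differed. Among the members, 3 of 10 differed. Wnt6 was higher in tumours and lower at d4, a difference between effects of 5.23 ± 0.59 on the log2 scale (adjusted p = 4.65e-06). Wnt5a, which passed in tumours and not at d4, differed by 2.13 on the same scale (SE 0.29, adjusted p = 2.38e-05). Wnt3 went the other way, with a tumour effect smaller by 2.60 ± 0.56 than the d4 effect (adjusted p = 0.00199). Paneth cell genes were lower in these tumours, 4 of 6 with 1 higher (median change -2.06, 1267 to 4534 CPM in all against 6496 to 7648 in WT), and 0 of 6 were lower at d4, and their part in the Wnt3 difference was not tested. All 3 calls held without each library in turn. Wnt11 (0.51 ± 0.85), Wnt4 (0.14 ± 0.45) and Wnt2b (-0.12 ± 0.40) did not differ beyond their errors. The allele (fl/+ against fl/fl), the time and the genetic background differ together between these experiments and cannot be told apart. The small RNA gene Rn7sk (7SK) also split them, at 3149 to 6778 CPM in WT small intestine and the tumours and 0 to 108 in both d4 groups, and the same gene was at 3450 to 30350 CPM in WT colon and BA tumours against 18.5 to 60.4 in the d30 groups.

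In BA colon at d30, 5 of the members fell. Of the 7 that passed the filter, 5 were lower and 0 higher, beside 29.3% lower and 25.8% higher (55.1% in all) of 17471 genes. Wnt11, at 5 to 9 reads per BA library, and Rspo1, at 2 to 9, passed the filter through their WT reads alone. The counts of members higher and lower therefore depend on the filter. The median change of the 7 was -1.14 against -0.03 over all genes. Wnt11 was 0.398, 0.302, 0.488, 0.547 and 0.533 CPM in BA d30 against 2.00, 1.05, 1.28 and 1.23 in WT d30, without overlap (-1.57 ± 0.27, adjusted p = 0.000529). Wnt4 was 2.39, 4.16, 4.39, 3.04 and 2.84 CPM against 7.27, 8.01, 6.87 and 8.02 (-1.14 ± 0.18, adjusted p = 0.000313). Wnt2b was 2.66, 4.16, 3.58, 3.53 and 3.02 CPM against 6.64, 5.65, 6.77 and 8.24 (-0.98 ± 0.16, adjusted p = 0.000421). Every BA library lay below every WT library for these 3 ligands. The share of all genes that separated this way was not counted, here or in the other comparisons.

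All 3 R-spondins had the lowest mean of the 11 groups in BA d30. Rspo3 was 1.06, 0.482, 0.732, 1.28 and 0.770 CPM against 3.06, 1.94, 1.09 and 2.03 in WT (-1.18 ± 0.33, adjusted p = 0.00953), with a small overlap of the groups. Rspo1 rested on few reads, 5, 2, 2, 3 and 9 against 10, 22, 14 and 21 (-1.62 ± 0.42, adjusted p = 0.00657). Rspo2 did not reach the filter, with 1, 1, 1, 2 and 0 reads against 9, 12, 9 and 11, a ratio of 8.86 (3.50 to 28.7) in favour of WT that also passed without the filter (-2.86 ± 0.53, adjusted p = 0.000292). Wnt3 did not reach the filter either, with 2 reads in all 5 BA libraries against 30 in the 4 WT libraries (ratio 16.2, interval 4.11 to 140), and it passed without the filter (-3.53 ± 0.72, adjusted p = 0.000734). Wnt5a (-0.25 ± 0.16) and Wnt6 (-0.23 ± 0.42) did not pass. When all 5 d30 groups were fitted together, Wnt4 (adjusted p = 0.0676) and Rspo1 (0.179) lost their calls at nearly equal sizes, in a fit that includes the antibiotic library with adipocyte genes.

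Marker lists of stromal cells moved with these members at d30, most of them lower. Of 10 fibroblast genes 8 were lower (median change -0.61), of 10 niche fibroblast genes 7 were lower and 1 higher (median -0.48), of 8 smooth muscle genes 6 were lower (median -0.95) and of 8 enteric neuron and glia genes all 8 (median -1.63), whereas 9 of 10 epithelial genes were higher (median 0.73). The fibroblast genes summed to 1193 to 1522 CPM in BA d30 against 1707 to 2116 in WT d30, and the epithelial genes to 21220 to 25200 against 11120 to 13110. Other sums went up: the niche fibroblast genes were at 353 to 498 CPM against 299 to 348 in WT, with F3 at 152 to 254 against 17.2 to 20.9, and the mesothelium genes were at 23.7 to 40.7 against 5.85 to 13.0, with 2 of 3 tested higher and 1 lower. Of 5 lymphatic endothelium genes 4 were lower (median -0.75). No marker of these stromal and epithelial lists was at 0 in all libraries of either group. Their part in the fall of the ligands was not tested.

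**Figure D4:**
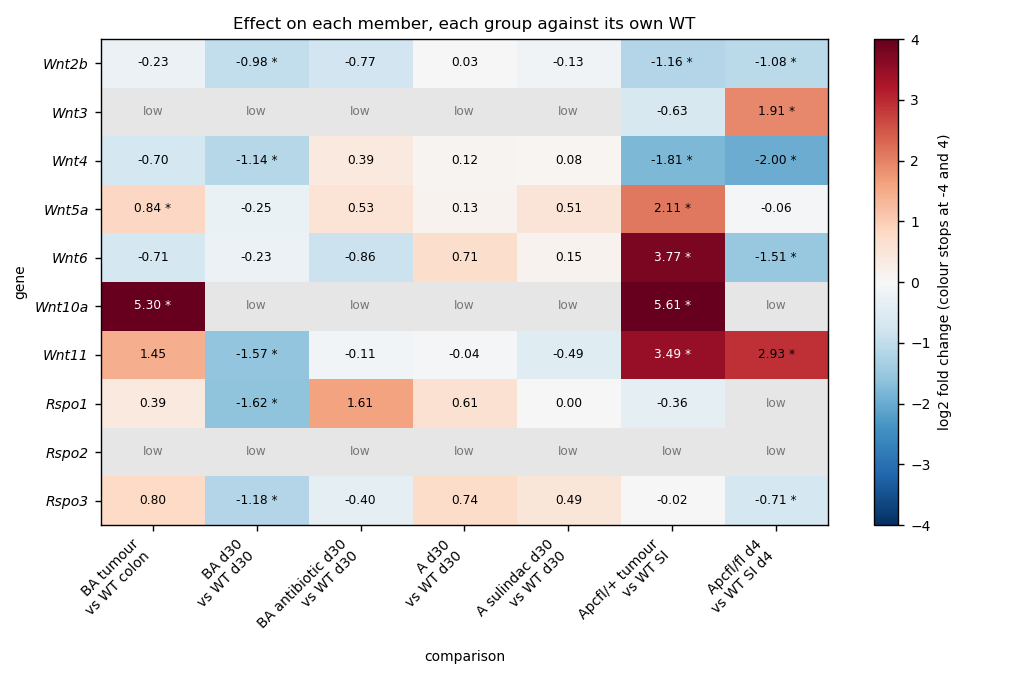
Log2 fold change of each member in 7 comparisons with WT, red for higher and blue for lower; a star marks an adjusted p under 0.05 and grey cells were too low for the filter. The 4 comparisons at d30 share the same 4 WT libraries.

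In BA tumours, 0 of the 5 members that fell at d30 were called lower. Of 8 members that passed the filter, Wnt10a and Wnt5a were higher and 0 lower, beside 13.2% of 19188 genes called (7.46% higher and 5.71% lower). Wnt10a had 14, 25, 24 and 29 reads in the 4 tumours and 0, 1 and 1 in WT colon, a ratio of 42.8 (95% exact interval 11.5 to 359), with a fitted change of 5.30 ± 0.89 (adjusted p = 0.00735). Wnt10a passed the filter through its tumour reads alone. Rspo2, with fewer reads in tumours, did not reach it, so the counts of members higher and lower depend on the filter. Wnt5a was 31.8, 23.2, 27.9 and 31.6 CPM against 15.1, 16.8 and 16.7, without overlap (0.84 ± 0.18, adjusted p = 0.0183). The Wnt5a call was lost without BA tumour replicate 4 (adjusted p = 0.0567), WT colon replicate 1 (0.103) or WT colon replicate 3 (0.0706). It was also lost with the replicate block (0.135), a fit that leaves out tumour replicate 4 as well. Sizes were 0.77 to 0.88 in these fits.

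Other members in BA tumours differed in their values without passing. Wnt11 was 4.17, 7.20, 4.14 and 13.3 CPM against 3.05, 1.04 and 3.91, with every tumour above WT (1.45 ± 0.56, adjusted p = 0.124), and it passed with DESeq2 (adjusted p = 0.0398) and without the filter (0.0383). Rspo3 was 7.05, 6.59, 10.9 and 11.1 CPM against 7.28, 5.52 and 2.72 (0.80 ± 0.37, adjusted p = 0.197). Wnt4 (-0.70 ± 0.32, adjusted p = 0.188) and Wnt2b (-0.23 ± 0.21, adjusted p = 0.509) were below WT in every tumour, and Wnt6 (-0.71 ± 0.39) and Rspo1 (0.39 ± 0.76) overlapped. Wnt3, too low for the filter, had 5, 11, 2 and 2 reads against 5, 6 and 4. Rspo2 had 3, 1, 2 and 2 reads against 14, 5 and 8, a ratio of 3.63 (1.60 to 9.24) in favour of WT whose fitted change without the filter did not pass (-1.77 ± 0.84, adjusted p = 0.251). Fibroblast genes summed to 4676 to 6986 CPM in BA tumours against 1937 to 2817 in WT colon, with 5 of 10 higher, and mesothelium genes to 105 to 443 against 8.54 to 22.9, of which Msln alone passed. Niche fibroblast genes summed to 699 to 1023 CPM against 331 to 419. Of these 10 genes 2 were higher (F3 and Grem1) and 0 lower, with a median change of -0.16. Of 8 immune cell genes 4 were higher and 0 lower (median change 1.24). Of 8 smooth muscle genes 3 were lower and 0 higher (median -1.25), and of 8 enteric neuron and glia genes 1 was lower and 0 higher (median -1.20). The part of these cell types in the ligand values was not tested.

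The BA tumour effect and the BA d30 effect differed for 3 of the 8 members tested together, beside 16.3% of 20637 genes. Wnt11 differed by 3.02 ± 0.62 (adjusted p = 0.00391), Rspo3 by 1.98 ± 0.51 (adjusted p = 0.0146) and Wnt5a by 1.10 ± 0.24 (adjusted p = 0.00616), all higher in tumours. Wnt2b (0.74 ± 0.25, adjusted p = 0.0531) passed with DESeq2 (0.0305), as did Wnt10a (0.0395). Wnt4 (0.44 ± 0.35, adjusted p = 0.428) and Rspo1 (2.01 ± 0.91, adjusted p = 0.148) did not pass. Set against Apc fl/+ tumours, the BA tumour effect was smaller for Wnt6 by 4.45 ± 0.60 (adjusted p = 0.000192), for Wnt5a by 1.23 ± 0.19 (adjusted p = 0.000463) and for Wnt11 by 2.00 ± 0.72 (adjusted p = 0.0396), beside 39.7% of 21668 genes. The Wnt11 difference was lost in 8 of 15 fits that left out a library, with adjusted p-values of up to 0.104. For Wnt10a the difference between the effects of the 2 tumour types did not pass (-0.30, adjusted p = 0.978). It ran from -1.01 to 1.50 over the fits that left out a library. Tissue and genotype differ together between these tumours.

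Loss of Alk5 alone and sulindac left no call on any member. In A d30 against WT d30, 0 of 7 tested members passed in edgeR (1 at an unadjusted p under 0.05), beside 0.141% of 17713 genes, with DESeq2 calling 0 members as well. The member with the smallest unadjusted p was Rspo3, at 2.41 to 4.20 CPM in A d30 and 1.09 to 3.06 in WT (0.74 ± 0.31, adjusted p = 0.51). In A mice on sulindac against WT, 0 of 7 passed in edgeR and in DESeq2 (0 at an unadjusted p under 0.05, beside 0.0507% of 17742 genes), and Wnt5a was 15.3 to 34.0 CPM against 13.5 to 21.6 (0.51 ± 0.25, adjusted p = 0.567). Sulindac against untreated A gave 0 of 7 in both tools (0 at an unadjusted p under 0.05, beside 0.0% of 17568 genes). With 4 mice a group, the errors of these changes ran from 0.16 to 0.55 on the log2 scale.

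Wnt5a was higher in BA mice on antibiotics than in untreated BA mice. It was 20.9, 20.0, 32.6, 17.4 and 22.3 CPM in treated mice against 13.8, 12.7, 16.8, 11.2 and 11.3 in untreated BA d30 mice, with no overlap (0.78 ± 0.18, adjusted p = 0.0181). It was the only call among 4 members that passed the filter, beside 13.0% of 16680 genes. It held without each library in turn, replicate 3 included, with adjusted p-values of up to 0.0486. Wnt4 (1.52 ± 0.64, adjusted p = 0.138) rested on replicate 3, which held 31.7 CPM against 3.53 to 4.37 in the other treated mice, and without it the change was 0.23. In the same library Rspo1 was 10.4 CPM against 0.190 to 1.42, and Wnt11 3.66 against 0.521 to 0.796. Median changes were 1.15 for fibroblast genes, 0.63 for smooth muscle, 0.57 for enteric neuron and glia and 0.36 for niche fibroblast genes. They were 0.04 for epithelial and -0.32 for immune cell genes, and 0 genes of these lists were called. These fits include replicate 3, and the part of these cell types in the Wnt5a change was not tested.

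Against WT d30, antibiotic-treated BA mice had 0 of 7 members called in edgeR (3 at an unadjusted p under 0.05), beside 39.6% of 17569 genes, and 2 called in DESeq2, Wnt5a (adjusted p = 0.033) and Wnt2b (0.0303). Without replicate 3, Wnt4 turned from 0.39 ± 0.67 to -0.90 ± 0.14 (adjusted p = 0.000415), and Wnt11 (-1.13, adjusted p = 0.00801) and Wnt2b (-0.99, adjusted p = 0.0111) passed as well. In untreated BA d30 mice, against the same WT libraries, the changes were -1.14 for Wnt4, -1.57 for Wnt11 and -0.98 for Wnt2b. Wnt3 had 2, 1, 1, 2 and 1 reads and Rspo2 0, 0, 2, 1 and 4 in treated mice, against 30 and 41 in all WT libraries.

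The rest of the pathway is given from lists of its parts, whose counts stand beside 61.5% of all genes called in Apc fl/+ tumours, 54.2% at d4, 55.1% in BA d30 and 13.2% in BA tumours. Of the 13 other ligand and R-spondin genes, no more than 5 passed the filter in any comparison of 2 groups. Wnt7b, a canonical ligand, was higher in both tumour types, with 4.60 ± 1.65 CPM (SD, n = 4) in BA tumours and 2 reads in all WT colon, a ratio of 159 (43.8 to 1320), and 2.26 ± 2.39 CPM (SD, n = 5) in Apc fl/+ tumours, where the ratio was 48.1 (16.3 to 235). In Apc fl/+ tumours its SD exceeded its mean, so its level was uneven between them. With 3 reads in all WT small intestine, Wnt7b passed the filter through tumour reads alone in both comparisons. Wnt5b was higher in Apc fl/+ tumours (1.39 ± 0.27, adjusted p = 0.00228) and at d4 (1.56 ± 0.24, adjusted p = 4.11e-05) and lower in BA d30 (-0.70 ± 0.21, adjusted p = 0.0132). Wnt8b (2.78) and Wnt7a, listed at 0 in all WT libraries, passed in Apc fl/+ tumours, Wnt9b at d4 (1.78), and Wnt9a in antibiotic-treated BA mice against WT (1.15) and against BA (1.00), all higher on the log2 scale. Wnt7a, like Wnt7b, passed the filter through tumour reads alone.

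Both secretion genes rose in Apc fl/+ tumours and fell in BA d30. Wls was 117 ± 20.1 CPM (SD, n = 5) in Apc fl/+ tumours against 31.8 ± 1.48 (SD, n = 3) in WT (log2 fold change 1.78, adjusted p = 4.17e-05), and 49.9 ± 3.83 (SD, n = 5) in BA d30 against 110 ± 10.3 (SD, n = 4) in WT d30 (-1.12, adjusted p = 8.23e-07). Porcn was higher in the tumours (1.60, adjusted p = 0.00093) and lower in BA d30 (-1.15, adjusted p = 0.00155). Both were also lower in antibiotic-treated BA mice against the same WT libraries (Wls -0.88, Porcn -0.78), Wls was higher at d4 (0.47, adjusted p = 0.0066), and neither passed in BA tumours.

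Of 5 R-spondin receptor and E3 ligase genes, 4 were higher in Apc fl/+ tumours and all 5 at d4 (median changes 1.82 and 1.80), 3 of 4 tested were lower in BA d30 (median -0.61) and only Rnf43 was higher in BA tumours (0.90, adjusted p = 0.0206). Lgr5, the R-spondin receptor of crypt base stem cells, changed by 2.41 ± 0.31 in Apc fl/+ tumours (adjusted p = 0.000296), by 2.25 ± 0.28 at d4 (adjusted p = 8.10e-06) and by -0.72 ± 0.15 in BA d30 (adjusted p = 0.00195). Lgr4, Rnf43 and Znrf3 rose in both Apc comparisons by 0.87 to 2.07 on the log2 scale, and Lgr6 at d4 (2.46). In antibiotic-treated BA mice against WT, Lgr4, Lgr5, Rnf43 and Znrf3 were lower and Lgr6 higher (2.04, adjusted p = 0.00273), and against untreated BA only Lgr4 passed (-0.50, adjusted p = 0.00664).

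Secreted antagonists rose most in Apc fl/+ tumours, 8 of 9 tested higher and Sfrp5 lower (-1.64), with a median change of 2.50 against 0.03 over all genes. Notum, which strips the lipid from Wnt proteins, was 200.0 ± 42.2 CPM (SD, n = 5) in these tumours and 0.420 ± 0.126 (SD, n = 3) in WT (8.77 ± 0.31, adjusted p = 3.64e-06), and Wif1, which binds Wnts, 146 ± 44.2 CPM against 0.550 ± 0.239 (7.94 ± 0.41, adjusted p = 9.06e-06). Sfrp1, Sfrp2, Sfrp4, Dkk2, Dkk3 and Frzb were the other 6 that rose, by 0.66 to 3.77. At d4, 2 of 8 were higher (Notum 4.41 ± 0.32, Frzb 1.06) and Dkk3 lower (-0.79). BA tumours had 4 of 9 higher, Frzb (3.70), Dkk2 (3.36), Sfrp1 (2.95) and Dkk3 (1.16), and BA d30 had 5 of 8 lower, Sfrp1, Sfrp2, Sfrp4, Sfrp5 and Dkk3, by -0.46 to -1.42.

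All 12 canonical targets were higher in both Apc comparisons, led by Nkd1 in tumours (4.87 ± 0.13) and Tnfrsf19 at d4 (3.27 ± 0.30), with medians of 1.89 and 2.07. In BA d30, 5 were higher and 4 lower of 12, from Sp5 (1.50) to Tnfrsf19 (-1.46), and in BA tumours 3 higher and 2 lower, from Myc (1.62) to Ascl2 (-2.60). Among 16 receptors, 10 were higher and 1 lower in Apc fl/+ tumours (Fzd10 4.61, Fzd5 -0.75), 7 and 3 of 15 at d4 (Fzd9 1.65, Fzd5 -1.45), 6 and 7 in BA d30 (Lrp5 1.26, Fzd3 -2.40) and 3 and 1 in BA tumours (Fzd1 2.27, Fzd3 -1.26). Of 13 transducers, 6 were higher and 4 lower in Apc fl/+ tumours (Lef1 2.58, Tcf7l2 -1.15), 3 and 4 at d4 (Lef1 2.69, Tcf7l1 -1.23), 6 and 3 in BA d30 (Ctnnb1 0.74, Tcf7l1 -1.00) and 0 in BA tumours. The 7 of 13 transducers called at d4 are a share near that of all genes.

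Across the 11 group means, the genes whose log2 level followed each member other than Rspo3 most closely, of 14416 genes searched, were Clu for Wnt10a (Pearson r 0.991), Slc14a1 for Wnt3 (0.989), Wnt6's Avil (0.97), Ror2 for Wnt11 (0.969), Hlf for Wnt4 (0.96), Arrb1 for Rspo2 (0.959), Tbc1d8 for Wnt2b (0.956), Stra6 for Wnt5a (0.948) and Ptger3 for Rspo1 (0.94). Clu is a marker of the foetal-like and regenerating epithelium, and Ror2 a receptor of non-canonical Wnts. The next in order were Plat and Vtcn1 for Wnt10a, Jaml and Epb42 for Wnt3, Foxl1 and Otop2 for Wnt6, Tmem119 and Kif26b for Wnt11, Msra and Apol10b for Wnt4, Cyp2j9 and Zcchc18 for Rspo2, Hpgds and Smarca1 for Wnt2b, Mras and Tmem184c for Wnt5a, and Ptgis and Gpx8 for Rspo1, at r of 0.918 to 0.982. These values describe 11 points that share tissue and preparation, with 3 genes named for each of these members. Wnt10a had a mean above 0.472 CPM only in BA tumours (1.43) and Apc fl/+ tumours (6.19), so its r rests mainly on the tumour groups. Rspo2 had no group mean above 0.529 CPM, close to the 0.5 added before the log.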

How the data were processed

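RNA-seq counts of 53 mouse libraries were analysed. The authors sequenced TruSeq libraries with paired reads of 36 bases, trimmed them with Trim Galore 0.6.4, aligned them to GRCm38 with HISAT2 2.1.0 and counted them on genes with featureCounts 1.6.4, and they deposited raw counts without normalisation, in which 0 columns belong to other samples. From these counts, low genes were removed by filterByExpr, libraries were scaled by TMM, and edgeR 4.0.16 gave a two-sided quasi-likelihood test per gene, with a separate fit for each comparison. Benjamini-Hochberg adjustment covered every gene in a fit, and a call means an adjusted p under 0.05. Levels are TMM-scaled CPM. Errors of log2 fold changes were derived as the change over the square root of its F statistic. They are unreliable where the change is very small. Ratios of reads summed over libraries carry exact 95% intervals, which cover counting error only. A gene filtered out for low counts is given by its reads.

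Members and lists were chosen with earlier results of these data known. The rule for named genes took all members, every gene called in the secretion, R-spondin receptor, antagonist and other-ligand lists, the called genes with the largest and smallest change of the remaining lists (for the comparisons in which members were called against WT), and the 3 genes nearest to each member by Pearson r of log2(CPM + 0.5), among genes with a mean of at least 1 CPM and without unnamed Gm and Rik models, and the targeted genes Apc, Braf and Tgfbr1. The genes nearest to Rspo3 are not reported here. The adipocyte and gastric lists, Gm13394 and Mmp7 were taken up after their values were seen. Alternatives were RLE scaling, no low-count filter, DESeq2 1.42.0, the replicate number as a block, all 5 d30 groups in 1 fit, CPM by library total and each library left out. The block fits kept only libraries whose replicate number occurs in both groups, so they also hold fewer libraries where group sizes differ. Equal replicate numbers stand for different mice, and they did not pair libraries (correlations of deviations from -0.43 to 0.2). The calling was tested on simulated data. R 4.3.3 and Python 3.11.15 were used.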

Additional observations from a re-analysis of the deposited data

Results flagged for a closer look

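Single libraries stood away from the others of their group for 6 members, by the gap of the extreme library to its neighbour over the range of the group. In the antibiotic-treated BA group at d30, replicate 3 did so for Wnt4 (31.7 CPM), Rspo1 (10.4 CPM) and Wnt11 (3.66 CPM), and it is the library with adipocyte genes. Replicate 5 of Apc fl/fl tissue at d4, the library with gastric genes, did so for Wnt11 (12.5 CPM) and Wnt10a (2.58 CPM). Replicate 2 of the Apc fl/+ tumours was alone in Wnt10a (24.2 CPM). In BA tumours, replicate 2 was high in Wnt3 (1.13 CPM, 11 reads) and replicate 4 low in Wnt2b (12 CPM). Replicate 4 of WT small intestine at d4 was high in Rspo1 (1.16 CPM, 18 reads). These are 9 of 72 combinations of a member and a group that were searched. Chance alone would give about 1 in 20 if values within a group were normally distributed, which CPM on few reads need not be. The combinations are also not independent, since members share libraries: 5 of the 9 came from 2 libraries.

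Some effects differed between settings by an interaction term in edgeR, each given as a difference of log2 fold changes. Between BA tumours and BA d30 these were Wnt5a (1.10), Wnt11 (3.02) and Rspo3 (1.98), 3 of 8 tested beside 16.3% of all genes. Between BA and Apc fl/+ tumours they were Wnt5a (-1.23), Wnt6 (-4.45) and Wnt11 (-2.00), 3 of 9 beside 39.7%. Between Apc fl/+ tumours and Apc fl/fl tissue at d4 they were Wnt3 (-2.60), Wnt5a (2.13) and Wnt6 (5.23), 3 of 10 beside 24.7%. The last 2 counts are near the share of all genes. The Wnt11 difference between the tumour types held in 7 of 15 fits that left out a library.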

How the results depend on the processing

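RLE scaling changed no call on a member, and all 110 group levels moved by less than the spread between replicates when CPM was scaled by library total. The number of members called in BA tumours was 2, against 3 with DESeq2 and without the low-count filter (Wnt11 added in both) and 1 with the replicate block. In BA d30 it was 5, against 7 without the filter (Wnt3 and Rspo2 added) and 3 with all 5 d30 groups in 1 fit. Without the filter it rose from 6 to 7 in Apc fl/+ tumours and from 6 to 8 at d4. For antibiotic-treated BA mice against WT d30 it was 0, against 2 without the low-count filter, 2 with DESeq2, 1 with the block and 1 with all d30 groups together. Against untreated BA it was 1, and 2 with all d30 groups together. The effect of BA tumours differed from that of BA d30 for 3 members, and for 5 with DESeq2. The number of all genes called also changed with the setting. In BA tumours the main fit called 1431 higher and 1096 lower of 19188 genes. DESeq2 called 2141 and 1657, and the block 561 and 287 of 18728. In BA d30 the main fit called 4516 higher and 5118 lower of 17471. All 5 d30 groups in 1 fit gave 3665 and 4300 of 18660. A changed number of members called need not be particular to the members.

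Leaving out each library in turn gave 1 to 2 members in BA tumours, 4 to 6 in Apc fl/+ tumours (4 without WT replicate 3), 5 to 6 in Apc fl/fl d4, 4 to 5 in BA d30, 0 to 3 in antibiotic-treated BA mice against WT (3 without treated replicate 3, 2 without WT d30 replicate 1, 1 without treated replicate 4), 1 in every fit against untreated BA and 0 in every fit of the A and sulindac comparisons. It gave 3 to 5 between BA tumours and BA d30 (5 without WT colon replicate 2), 2 to 4 between both tumour types and 3 in every fit between the Apc settings. Counts over all genes changed with the library left out too. Without WT colon replicate 1, 395 genes were higher and 301 lower of 19919 in BA tumours. In BA d30, the fits with 4 calls were those in which Rspo1 was too low for the filter. Wnt4 in antibiotic-treated BA mice against WT reversed to -0.90 without treated replicate 3 and reached 0.54 at most without another library.

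Equal replicate numbers did not pair libraries. With the block, 5 members were called in Apc fl/fl d4, 4 in BA d30 and 6 in Apc fl/+ tumours, and Wnt2b passed in antibiotic-treated BA mice against WT (-0.95, adjusted p = 0.0398) while Wnt4 there was -0.22. Low counts limit Rspo2 and Wnt3 in colon (14 reads or fewer per library) and Wnt10a in WT tissue (4 or fewer). The cause of these changes was not tested.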

Other observations

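Members too low for the filter were also fitted without it in the comparisons not described above. Rspo2 was -0.68 ± 0.41 in A d30 (edgeR, adjusted p = 0.674) and -1.26 ± 0.42 in A mice on sulindac (adjusted p = 0.434) against WT d30, where it had 3 to 7 reads per A library and 9 to 12 per WT library, so the groups did not overlap. Wnt3 differed between the BA tumour and the BA d30 effect by 3.97 ± 1.21 (adjusted p = 0.0429), on 20 reads in all BA tumours and 2 in all BA d30 libraries. Tumour replicate 2 held 11 of those 20 reads.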
